A study of Mus musculus with 24 samples.

Results

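Transcripts were compared between the blood of mice labelled Gadd45aKO and mice labelled Gadd45aWT that had received no radiation. All arrays with these labels and a dose of 0 Gy were taken, 10 of the 24 arrays of the series. The groups were 5 KO-labelled and 5 wild-type (WT) arrays, each from male C57BL/6J mice of the given genotype, whose age the labels do not state. The labels give the KO-labelled mice no other allele and do not say which part of Gadd45a was removed. Blood was drawn by cardiac puncture into PAXgene tubes, which lyse the cells and preserve RNA, 24 h after exposure to 0 Gy, and total RNA was labelled with a single dye and hybridised to Agilent mouse arrays. The other 14 arrays came from mice of both genotypes exposed to 7 Gy of x-rays (9 KO-labelled and 5 WT) and serve to set the same label comparison beside that at 0 Gy. They also entered the scaling, the probe filter and the shared estimate of the spread. The design text counts independent experiments and no label names an animal, so each p-value reflects only how far these samples scatter, which may be technical in part.

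Gadd45a encodes a small stress-inducible protein that binds growth-arrest and repair proteins and acts on the p38 and JNK kinase pathways. It is induced by p53 after DNA damage, and in T cells it restrains p38. Mice without it are known to develop a lupus-like autoimmune disease, so the unirradiated comparison asks what differs in blood before any exposure. Whole blood mixes leukocytes, platelets and RNA-bearing young red cells, so that fewer cells of a type and less RNA per cell cannot be told apart here.

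Arrays differed in quality within both groups. Well above background were 48.1%, 26.0%, 47.8%, 47.2% and 47.5% of probes on KO-labelled arrays 1 to 5 and 36.8% to 48.8% on the WT arrays. KO-labelled arrays 1 and 4 differed by about as much as repeat spots within an array (ratio 1.05, cutoff 1.1). They were averaged and counted as 1 sample, so that n = 4 KO-labelled and n = 5 WT samples. KO-labelled arrays 2 and 5 stood apart. The median of 36 hepatocyte genes, which blood cells are not known to express strongly, lay 1.89 and 3.82 above the WT mean there and between -0.48 and -0.28 on the other KO-labelled arrays (log2). The median coefficient of variation from Feature Extraction was highest on WT array 1 (26.8%) and KO-labelled array 2 (15.7%). On WT array 1 the platelet chemokine Pf4 was low (0.91, against 5.81 to 5.98 on the other WT arrays), while the median of the platelet genes was not. Cd79a (-3.47, against 0.50 to 0.83) and Cxcr2 (-4.70, against -0.96 to -0.35) were low there too. Other markers such as Cd79b and Csf3r were not. Each of the 5 slides held 1 array of each group, and below a slide difference is KO-labelled minus WT on the same slide.

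Levels are log2 of the processed signal minus the 75th percentile of the array, differences are KO-labelled minus WT on that scale, and a gene was called at a limma adjusted p (Benjamini-Hochberg over 15763 genes) under 0.05. Gadd45a itself did not separate the labels. Its level was 0.58, 0.28, 0.53, 0.68 and 0.61 on KO-labelled arrays 1 to 5 and 0.30, 0.73, 0.57, 0.84 and 0.87 on WT arrays 1 to 5. The groups overlapped, with a difference of -0.15 ± 0.21 (SE, adjusted p = 0.854). The probe lies at chr6:66985376-66985435 on the minus strand (mm9, the build of the array files) and checks the label only if the removed part includes it, which the labels do not say. At 7 Gy Gadd45a was higher in the KO-labelled arrays, by 1.21 ± 0.17 (adjusted p = 4.83e-05). Directions below therefore follow the label.

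The labels differed in few genes. Of 15763 genes tested, 47 were called (0.298%), 34 of them higher (0.216%) and 13 lower (0.0825%) in the KO-labelled arrays, and 1467 (9.31%) had an unadjusted p under 0.05. The median difference of all genes was 0.10, with a 5th percentile of -0.65 and a 95th percentile of 0.74. All 47 kept one direction on all 5 slides, and all but Eif3c did not overlap between the groups, against 7.16% of all genes apart and higher and 3.66% apart and lower. The call itself selects for this. With the slide as a block, a fit that also counts arrays 1 and 4 separately, 99 genes were called, all 47 among them, and counting them separately without a block gave 79. But with that block in the 0 Gy arrays alone 7 were, 4 of them among the 47. Leaving out KO-labelled arrays 2 and 5 gave 16 calls, 11 of them among the 47 (Tspo2, Selenbp1, Asns, Slc3a2, Dnaja4, Ifi27, Xaf1, Dtx3l, Trak2, Ssbp3 and Cnn1). Every other call named below ended there. That fit held only array 3 and the mean of arrays 1 and 4 as KO-labelled samples. A call could thus end without a smaller difference, as for Rph3al (1.60, then 1.79). It could also end with a smaller difference, as for Afap1l1 (-1.63, then -0.94). Background correction by normexp left Tspo2 as the only call. With only the 0 Gy arrays in the fit 77 genes were called, 27 of them among the 47. Each of the 47 kept its direction in every one of the 27 alternative analyses that tested it, of which 25 left all 47 in the test. Tspo2 was called in 27 of them and Gm11223, the least often called, in 8. The plot of called genes by array shows them all.

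**Figure D1:**
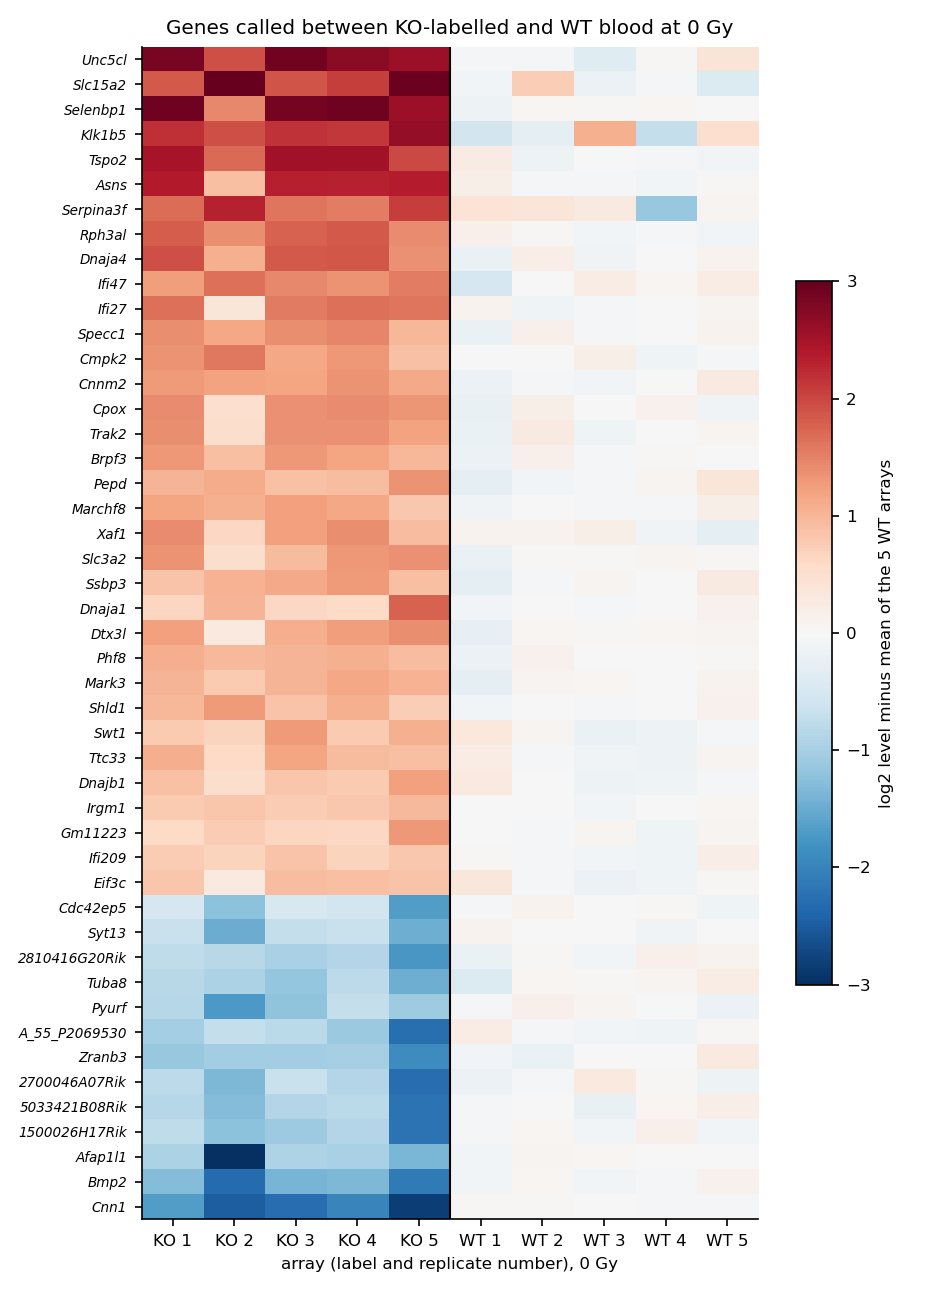
Each row is 1 of the 47 called genes and each column 1 of the 10 unirradiated arrays, coloured by log2 level minus the WT mean. The 34 upper rows are higher and the 13 lower rows lower in the KO-labelled arrays, and KO-labelled arrays 2 and 5 differ from the other 3 in several rows.

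Tspo2, a membrane protein of the translocator family made in maturing red cells, was the gene called in the most alternatives. Its level was 2.86, 2.07, 2.90, 2.90 and 2.37 on KO-labelled arrays 1 to 5 and 0.63, 0.24, 0.38, 0.36 and 0.30 on the WT arrays. Every KO-labelled array lay above every WT array, with the lowest on array 2. The difference was 2.17 ± 0.28 (4.51-fold, adjusted p = 0.000575), and 1.83 to 2.54 on the slides. Tspo2 was called in 27 of 27 alternatives, and at 7 Gy the difference was 2.36 ± 0.23 (adjusted p = 1.72e-06). Its probe lies at chr17:48587807-48587866 (mm9, minus strand).

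Unc5cl, a membrane protein with a death domain, is the neighbour of Tspo2. RefSeq places Tspo2 at chr17:48447942-48451564 on the minus strand and Unc5cl at chr17:48454127-48539709 on the plus strand (GRCm38.p6), so that 2562 bases separate the genes and they run apart from each other. Unc5cl stood at -5.07, -5.98, -5.03, -5.21 and -5.35 on the KO-labelled arrays and at -7.95, -7.95, -8.28, -7.90 and -7.53 on the WT arrays. It was well above background on 4 KO-labelled arrays and on no WT array. For a gene not well above background on any WT array at 0 Gy a bound is given, from the KO-labelled mean against the lowest signals well above background in WT. By that bound Unc5cl was 2.92-fold higher (adjusted p = 0.0214). On KO-labelled array 2 it was not well above background (lowest such signal -5.07). The mean includes that array, so that 2.92 is not a firm lower limit. At 7 Gy Unc5cl was well above background on 8 of 9 KO-labelled and 2 of 5 WT arrays. It was called there as well (2.61 ± 0.40, adjusted p = 7.94e-05). It was called in 14 of 25 alternatives and not without KO-labelled arrays 2 and 5 (adjusted p = 0.0873).

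Other called genes ranged from the cytoskeleton to heme and iron handling. Specc1, a coiled-coil cytoskeletal protein, stood at 2.88, 2.64, 2.89, 2.95 and 2.48 on the KO-labelled and at 1.29, 1.64, 1.45, 1.48 and 1.60 on the WT arrays. It was higher by 1.24 ± 0.25 (adjusted p = 0.0269) with no overlap, and by 1.71 at 7 Gy (adjusted p = 7.23e-06). It was called in 12 of 27 alternatives, but not without arrays 2 and 5 (1.41, 0.110). With the mean of its probes in place of its brightest probe the difference was 0.86 and was not called. Cpox, an enzyme of heme synthesis, was higher by 1.15 ± 0.25 (adjusted p = 0.0477), and was called in 10 of 26 alternatives. Marchf8, a ubiquitin ligase that acts on the transferrin receptor, was higher by 1.07 ± 0.21 (0.0277) and by 0.85 at 7 Gy. Trak2, an adaptor in the transport of mitochondria, was higher by 1.12 (0.0283).

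Few other red cell genes were called. Of 19 genes of globin and heme synthesis, 1 was called higher (Cpox) and none lower, and their median difference was -0.26, or -0.02 without KO-labelled arrays 2 and 5. Of 26 genes of red cell membrane and maturation, 1 was called higher (Tspo2). Apart and higher were 4 (7.16% of all genes were) and apart and lower 6 (3.66% of all genes were). Their median was 0.04 beside 0.10 for all genes. Alas2, the first enzyme of heme synthesis in red cells, differed by -0.65 (adjusted p = 0.539).

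Interferon-responsive genes lay mostly higher in the KO-labelled arrays. Of 50 interferon response genes tested, 5 were called higher and none lower (0.216% and 0.0825% of all genes). Apart and higher were 20 and apart and lower none (7.16% and 3.66% of all genes). A positive difference was seen in 45, as in 9377 of all 15763 genes. The median difference was 0.64, beside 0.10 for all genes. It was 0.66, 0.38, 0.53, 0.70 and 0.77 on KO-labelled arrays 1 to 5 relative to the WT mean, so that all 5 lay above the WT mean, and without arrays 2 and 5 it was again 0.64. Of 16 interferon-inducible GTPases, which share members with this list, 2 were called higher. Apart and higher were 7 of them (7.16% of all genes were), and their median was 0.55. At 7 Gy the list lay lower, with 25 genes called lower (18.1% of all genes were) and 1 higher (4.5%) and a median of -0.65 beside -0.12 for all genes.

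Ifi47, an interferon-inducible GTPase that acts against intracellular pathogens, was called in the most alternatives among the interferon genes. It stood at 0.50, 0.88, 0.66, 0.57 and 0.77 on the KO-labelled and at -1.27, -0.77, -0.55, -0.70 and -0.56 on the WT arrays. The groups did not overlap, and the difference was 1.48 ± 0.21 (2.79-fold, adjusted p = 0.00206), called in 24 of 27 alternatives. Without KO-labelled arrays 2 and 5 it was 1.37 (adjusted p = 0.0553).

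Irgm1, a GTPase of the same class that guards against mycobacteria, showed little spread. Its level was -2.42, -2.38, -2.46, -2.41 and -2.23 against -3.22, -3.20, -3.29, -3.19 and -3.16, with slide differences of 0.78 to 0.92. It was higher by 0.84 ± 0.16 (adjusted p = 0.0229), was called in 14 of 27 alternatives but not without arrays 2 and 5 (0.337), and was lower at 7 Gy, by 0.78 (a difference of -0.78, adjusted p = 0.000274).

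Ifi27, a mitochondrial protein induced by type I interferon, stood at 1.15, -0.14, 1.06, 1.15 and 1.11 on the KO-labelled and at -0.40, -0.62, -0.56, -0.50 and -0.41 on the WT arrays. KO-labelled array 2 lay near WT, and the difference of 1.29 ± 0.22 (adjusted p = 0.0104) was 1.60 (0.00141) without arrays 2 and 5. Xaf1, a promoter of apoptosis, stood at -3.40, -4.19, -3.57, -3.43 and -3.88 against -4.69, -4.70, -4.64, -4.91 and -5.11. Its difference of 1.04 ± 0.17 (adjusted p = 0.00717) turned to -0.66 at 7 Gy (0.00191). Cmpk2, a mitochondrial nucleotide kinase, was higher by 1.23 ± 0.23 (0.0214), and Dtx3l, a ubiquitin ligase that works with Parp9, by 1.01 (0.0367). Ifi209, of the family of cytosolic DNA sensors, was higher by 0.76 (0.0332), and was called in 11 of 27 alternatives.

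Well-known members of the response were not called. Isg15, a ubiquitin-like modifier, stood at 4.36, 2.93, 4.27, 4.24 and 3.68 on the KO-labelled arrays and between 2.60 and 2.91 on the WT arrays, without overlap. Its difference of 1.1 had an adjusted p of 0.133, and without KO-labelled arrays 2 and 5 it was 1.59 (0.0488). Ifit3, which binds viral RNA complexes, stood at -3.95, -3.77, -3.66, -3.67 and -4.35, above all WT arrays, with a difference of 1.20 (0.152). At 7 Gy Ifit3 was lower by 2.20 (a difference of -2.20, adjusted p = 8.72e-06), whereas Isg15 was called higher (0.72, 0.0328). Irf7, the factor that amplifies type I interferon, differed by 1.01 (0.163).

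The promoters of 3 of these genes are shown because they hold the interferon-stimulated response element, searched as GAAANNGAAA on both strands and printed in capitals (as TTTC repeats on the minus strand). They are RefSeq sequences of GRCm38.p6, from 250 bases before to 50 bases after the start of the gene, 5' to 3' along its strand: Irgm1 at chr11:48871371-48871670 (minus strand), Isg15 at chr4:156200769-156201068 (minus) and Ifit3 at chr19:34583279-34583578 (plus).
Irgm1: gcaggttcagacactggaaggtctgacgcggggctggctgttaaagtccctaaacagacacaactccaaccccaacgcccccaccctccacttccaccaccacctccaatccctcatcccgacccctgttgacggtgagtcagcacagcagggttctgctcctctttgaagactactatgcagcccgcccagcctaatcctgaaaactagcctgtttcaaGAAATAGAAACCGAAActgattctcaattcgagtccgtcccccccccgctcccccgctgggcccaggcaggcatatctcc
Isg15: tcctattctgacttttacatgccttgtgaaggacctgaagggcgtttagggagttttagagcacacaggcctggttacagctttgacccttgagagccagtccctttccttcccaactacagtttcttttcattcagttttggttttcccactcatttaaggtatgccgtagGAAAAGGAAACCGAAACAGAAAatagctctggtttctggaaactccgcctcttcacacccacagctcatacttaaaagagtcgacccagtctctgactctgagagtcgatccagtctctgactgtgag
Ifit3: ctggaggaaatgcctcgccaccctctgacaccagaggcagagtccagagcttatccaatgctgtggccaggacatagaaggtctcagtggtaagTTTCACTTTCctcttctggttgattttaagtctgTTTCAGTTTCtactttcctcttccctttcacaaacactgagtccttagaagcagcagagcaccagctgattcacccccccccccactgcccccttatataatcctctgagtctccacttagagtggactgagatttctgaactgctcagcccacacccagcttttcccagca
In Irgm1 there are 2 overlapping matches that end 20 and 14 bases before the start, in Isg15 there are 3 that end 68, 62 and 56 bases before it, and in Ifit3 there are 2. The motif was in the promoters of 3.99% of the 27025 genes of the table and of 3.94% of the 10207 tested genes found there. It was in 18 of the 37 interferon response genes with a promoter (48.6%) and in 8 of 9 interferon-inducible GTPases (88.9%). Of the 32 genes called higher with a promoter, only Irgm1 held it (3.12%), and none of 7 called lower did.

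**Figure D2:**
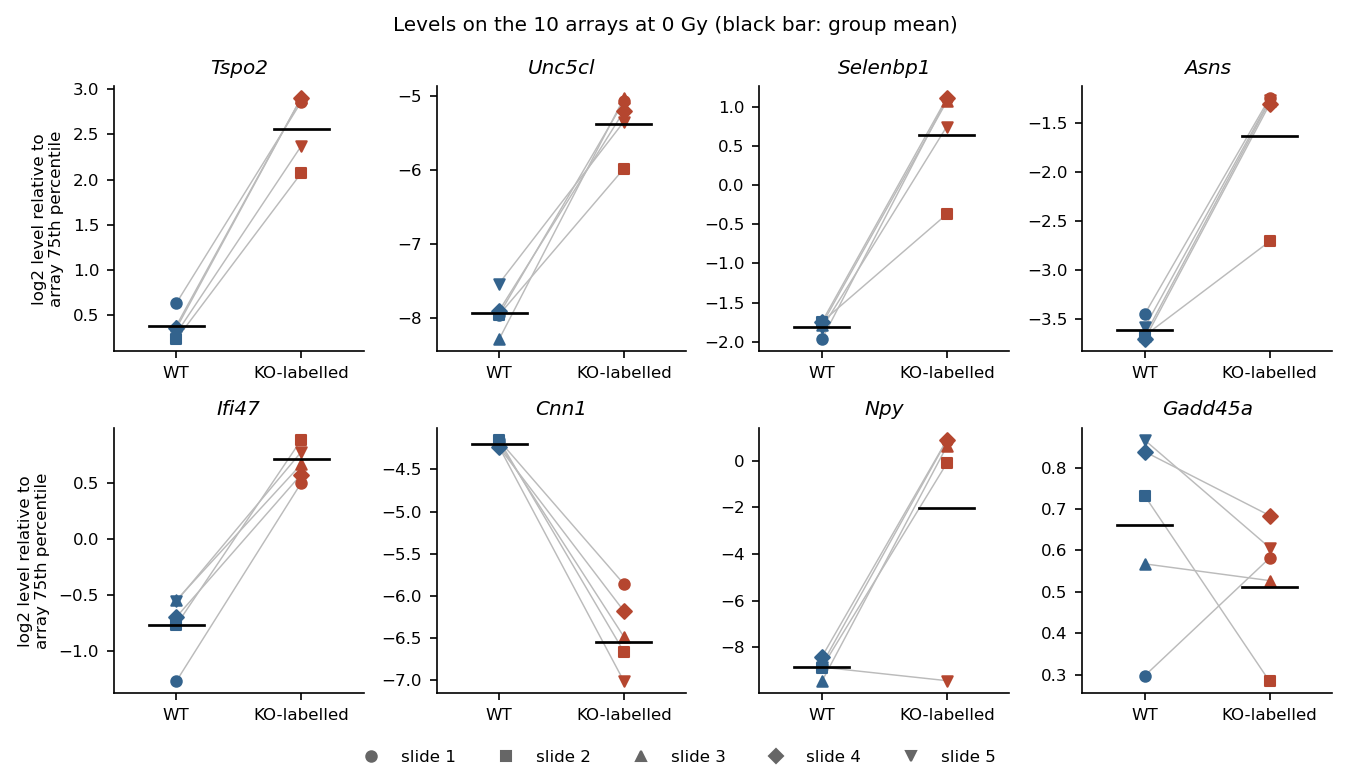
Log2 level relative to the array's 75th percentile, of 8 genes on the 10 unirradiated arrays. Blue points are WT and red points KO-labelled arrays, grey lines join the arrays of a slide, symbols mark the slide and black bars the group means. Tspo2, Selenbp1, Asns and Ifi47 show a gap between the groups and Cnn1 the opposite gap, while Gadd45a overlaps.

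Asns and Slc3a2, which serve amino acid supply, were called higher. Asns, which makes asparagine and is a target of the stress factor ATF4, stood at -1.24, -2.71, -1.28, -1.31 and -1.26 on the KO-labelled and at -3.45, -3.67, -3.67, -3.71 and -3.59 on the WT arrays. KO-labelled array 2 lay closest to WT and there was no overlap. The difference was 1.99 ± 0.31 (3.96-fold, adjusted p = 0.00465), called in 25 of 27 alternatives, 2.34 without arrays 2 and 5 (0.00224) and -0.24 at 7 Gy (0.548). Slc3a2, the heavy chain of the amino acid transporter CD98, stood at 0.75, -0.07, 0.37, 0.71 and 0.77 against -0.80, -0.56, -0.55, -0.50 and -0.55, a difference of 1.04 ± 0.15 (0.00284). Of 20 ATF4 stress genes these were the 2 called, none was called lower and 15 had a positive difference. Of the 20, 6 were apart and higher (7.16% of all genes were), and the median was 0.39.

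The promoter of Asns is shown for its C/EBP-ATF element, searched as TGATGNAA on both strands and chosen after the values were seen. It lies at chr6:7693160-7693459 (GRCm38.p6, RefSeq, minus strand).
Asns: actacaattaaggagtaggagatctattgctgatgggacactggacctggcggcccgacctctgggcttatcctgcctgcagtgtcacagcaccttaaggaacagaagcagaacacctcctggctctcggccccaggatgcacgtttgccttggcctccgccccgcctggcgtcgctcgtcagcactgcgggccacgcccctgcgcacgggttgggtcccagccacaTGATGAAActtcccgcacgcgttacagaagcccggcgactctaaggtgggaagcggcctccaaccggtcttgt
The match in capitals ends 15 bases before the start. The element was in 4.51% of all genes' promoters, in 3.01% of those tested and in 5 of 17 ATF4 stress genes (29.4%). Of the genes called higher, Asns alone held it.

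Called higher were also 3 co-chaperones of the Hsp40 family, which pass unfolded proteins to Hsp70. Dnaja4 was higher by 1.54 ± 0.24 (2.91-fold, adjusted p = 0.00482) and by 0.87 at 7 Gy (0.00368). With the mean of its probes in place of its brightest probe the 0 Gy difference was 0.86 and was not called. Dnaja1 stood at 0.12, 0.50, 0.09, 0.07 and 1.25 against -0.61, -0.54, -0.58, -0.53 and -0.39, highest on KO-labelled array 5. Its difference of 1.01 (0.0269) was 0.62 without arrays 2 and 5 (0.57). Dnajb1 stood at -0.21, -0.57, -0.25, -0.29 and 0.15 against -0.80, -1.07, -1.23, -1.21 and -1.11, a difference of 0.86 (0.0229), and 0.84 without arrays 2 and 5 (0.122). All 16 heat shock genes tested had a positive difference, 2 were called and 5 were apart and higher (7.16% of all genes were). Their median was 0.45 and reached 1.02 on KO-labelled array 5. Without arrays 2 and 5 the median was 0.29 and none was called. The heat shock element GAANNTTCNNGAA was in 0.662% of all genes' promoters, in 3 of 11 of the list (27.3%) and in none of the 32 genes called higher.

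Further genes called higher were in none of the gene lists. Selenbp1, a methanethiol oxidase, stood at 1.1, -0.37, 1.07, 1.11 and 0.75 on the KO-labelled and at -1.97, -1.75, -1.78, -1.75 and -1.83 on the WT arrays. Among called genes well above background on all 10 arrays it had the highest fold, 2.45 ± 0.30 (5.47-fold, adjusted p = 0.000413), but did not differ at 7 Gy beyond the error (0.22, 0.588). Selenbp2 is a near-identical copy, so that the signal may be shared. Slc15a2, a peptide transporter, stood at -6.52, -5.08, -6.47, -6.27 and -5.42 and was well above background on no WT array. By the bound it was 2.11-fold higher (adjusted p = 0.00754, and 0.302 without arrays 2 and 5). On KO-labelled array 2, where its level was highest, it was not well above background (lowest such signal -5.07). The mean includes that array, so that 2.11 is not a firm lower limit. Rph3al, a Rab effector in exocytosis, stood at -2.17, -2.57, -2.21, -2.14 and -2.55 against -3.81, -3.94, -4.05, -4.00 and -4.06. Its difference of 1.60 ± 0.28 (3.03-fold, adjusted p = 0.0115) was 1.71 at 7 Gy (2.83e-05). With the mean of its probes in place of its brightest probe the 0 Gy difference was 1.17 and was not called.

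Genes of chromatin, transport and signalling were also called higher. Ssbp3, a partner of the nuclear adaptor Ldb1, was higher by 1.04 (adjusted p = 0.00465) and by 0.84 at 7 Gy. Brpf3, a scaffold of a histone acetyltransferase, was higher by 1.11 (0.0189), Cnnm2, a magnesium transporter, by 1.21 (0.0295), and Pepd, which cleaves proline dipeptides, by 1.08 (0.0431, called in 11 of 27 alternatives). Serpina3f, a serine protease inhibitor, was higher by 1.90 (0.00737) and Klk1b5, a kallikrein, by 2.22 (0.0349), but both belong to families of near-identical genes and were well above background on 2 and 1 of 5 WT arrays.

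Genes lower in the KO-labelled arrays were fewer. Cnn1, the calponin of smooth muscle, stood at -5.86, -6.66, -6.48, -6.18 and -7.01 on the KO-labelled and at -4.15, -4.15, -4.19, -4.23 and -4.23 on the WT arrays. The groups lay far apart, with a difference of -2.35 ± 0.26 (5.1-fold, adjusted p = 0.000119), called in 24 of 25 alternatives. It was -2.06 without KO-labelled arrays 2 and 5 (0.00563) and 0.32 at 7 Gy (0.318). Bmp2, a secreted growth factor, stood at -4.19, -5.22, -4.29, -4.25 and -5.02 against -2.98, -2.85, -2.97, -2.92 and -2.77, a difference of -1.79 ± 0.32 (0.0131), and -1.36 without arrays 2 and 5 (0.397).

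Zranb3, an annealing helicase of stalled replication forks, differed by -1.26 (adjusted p = 0.0402), Tuba8, an alpha tubulin, by -1.10 (0.0269) and Syt13, a synaptotagmin, by -1.08 (0.0214). Cdc42ep5, an effector of Cdc42, differed by -0.98 (0.0276) and was higher at 7 Gy, by 0.60. Afap1l1, an actin-associated protein, differed by -1.63 (0.0351), and Pyurf by -1.20 (0.0229). Without KO-labelled arrays 2 and 5 the differences of Afap1l1 (-0.94, 0.370), Cdc42ep5 (-0.50, 0.757) and Syt13 (-0.69, 0.661) were smaller by over 1.5 times, and that of Zranb3 was -1.06 (0.533). None of the 13 lower genes was in a gene list, whereas 12 of the 34 higher genes were.

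The label differences at 7 Gy came from other arrays, but the tests at both doses shared 1 fit and each gene's estimate of the spread. A gene with a small shared spread is more easily called at both doses, so the calls are not independent. Some 7 Gy arrays lay just above the cutoff of 1.1 times the spread of repeat spots and were counted separately. The ratio was 1.18 for KO-labelled 7 Gy arrays 1 and 2, 1.21 for 2 and 4, and 1.29 for WT 7 Gy arrays 1 and 2. If these are not independent, the p-values at 7 Gy and the shared spread are too small. Of the 34 genes higher at 0 Gy, 13 were called higher there, against 4.5% of all genes, and 5 lower, against 18.1%, and their median difference was 0.38. Tspo2, Unc5cl, Slc15a2, Rph3al, Dnaja4, Specc1, Ssbp3 and Marchf8 were among those higher at both doses. The 5 called lower were Serpina3f, Cmpk2, Xaf1, Irgm1 and Ifi209, of which the last 4 are known interferon-inducible genes. Of the 13 lower genes none was called lower at 7 Gy, 1 (Cdc42ep5) was called higher and the median was 0.16. Only 1 of them kept its sign, Pyurf (-0.37, not called). Among the 4 groups of the series, 27 of the 34 higher genes had their highest mean in unirradiated KO-labelled arrays, as had 6223 of all 15763 genes. The choice of the 34 favours this.

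**Figure D3:**
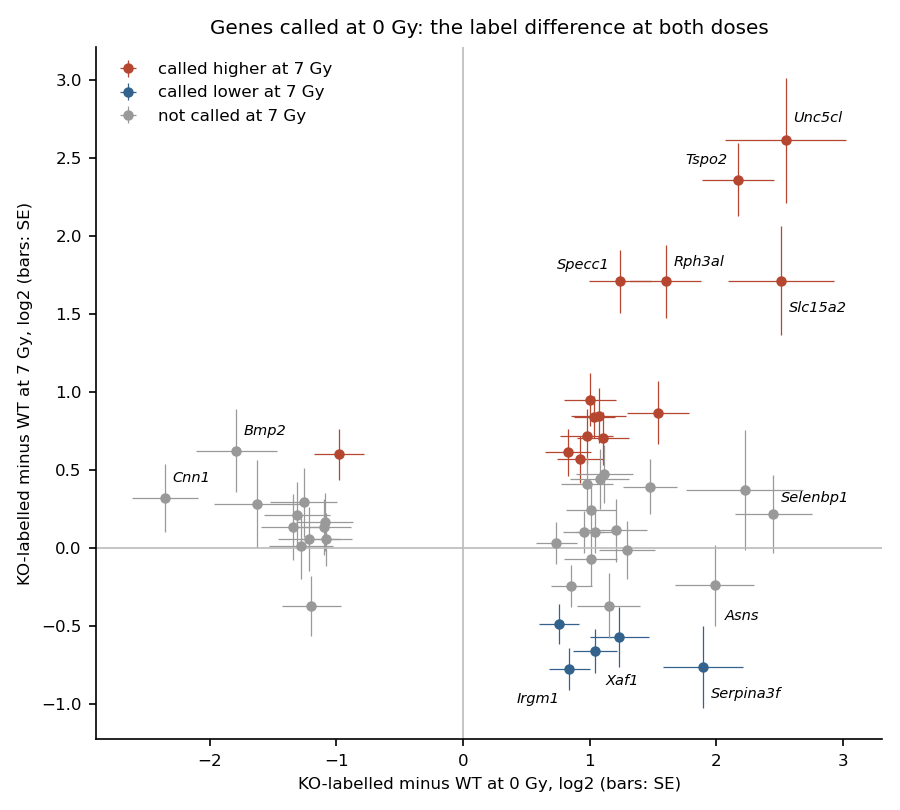
Difference KO-labelled minus WT (log2) at 0 Gy on the x axis and at 7 Gy on the y axis for the 47 called genes, with bars of 1 SE and colours for the call at 7 Gy. Genes such as Tspo2 and Rph3al lie high at both doses, whereas Selenbp1, Asns and Cnn1 lie near 0 at 7 Gy. Unc5cl and Slc15a2 were not above background on any WT array at 0 Gy, so that their positions are uncertain.

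Genes of blood cell types were called rarely, and their lists differed in level. All 22 B cell genes had a positive difference, with none called, 9 apart and higher (7.16% of all genes were) and a median of 0.45 beside 0.10 for all genes. The medians were 0.47 for 21 natural killer cell genes, 0.27 for 26 T cell genes and 0.39 for 10 genes of MHC class II, which presents antigen, also without a call. Cd3e, of the T cell receptor complex, differed by 0.31 and Ncr1, a natural killer receptor, by 0.80 (adjusted p = 0.422).

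Lists of neutrophils and platelets lay lower. The median of 22 neutrophil surface genes was -0.69, with 10 apart and lower (3.66% of all genes were), none apart and higher and none called. Relative to WT it was -0.63, -1.65, -0.82, -0.65 and -0.32 on KO-labelled arrays 1 to 5, lowest on array 2. The median of 15 neutrophil granule genes was -0.36, with 5 positive. Relative to WT it was 0.25 on KO-labelled array 5 and -0.76 to -0.57 on the others. S100a8, an abundant neutrophil calcium-binding protein, differed by -1.22 (adjusted p = 0.281). Of 5 neutrophil markers 1 had a positive difference, Ly6g (0.60, adjusted p = 0.322), and Csf3r differed by -0.14. The median of 27 platelet genes was -0.56, with 13 apart and lower (3.66% of all genes were), and was -0.94 and -0.75 on KO-labelled arrays 2 and 5 against -0.26 to -0.15 on the others. Without these arrays it was -0.18. Monocyte genes (23) had a median of -0.07, or -0.47 without them. No gene of these lists was called, and the part of cell composition in the called genes was not tested.

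**Figure D4:**
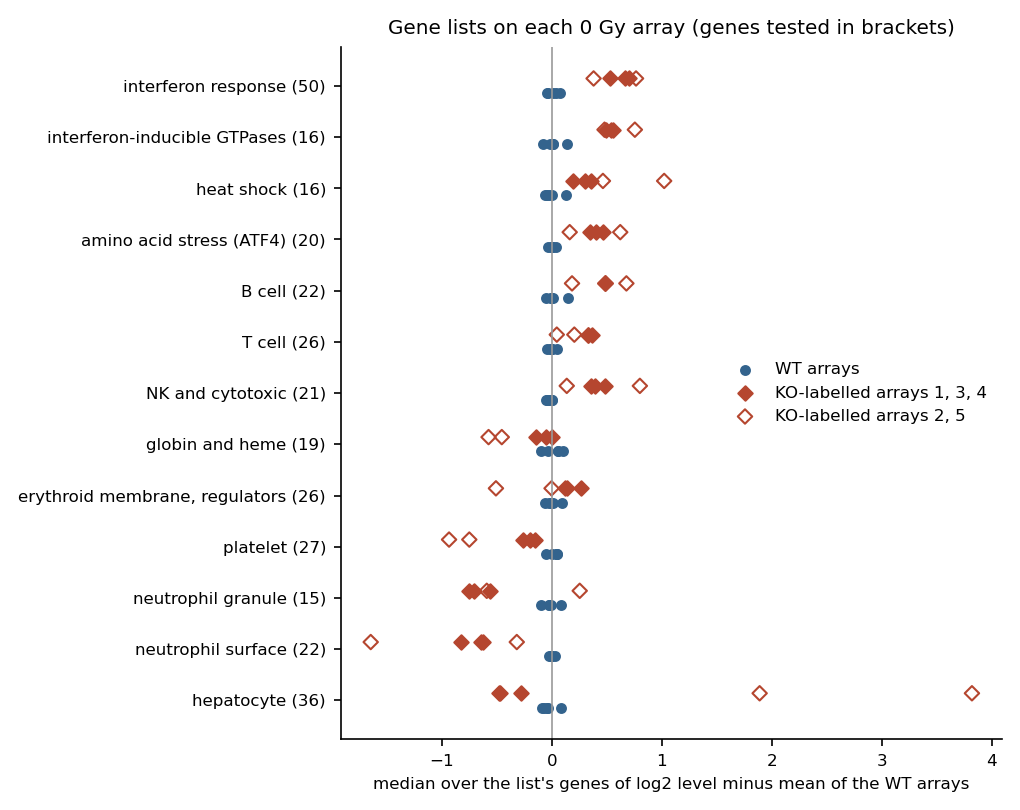
Median log2 level of the genes of each list minus the WT mean, for every unirradiated array (x axis, log2). Blue circles are WT arrays, filled diamonds KO-labelled arrays 1, 3 and 4 and open diamonds arrays 2 and 5. Interferon response, heat shock and B cell genes lie above 0 and neutrophil surface genes below 0 on all KO-labelled arrays, and hepatocyte genes lie high on KO-labelled arrays 2 and 5.

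Among the unirradiated arrays, hepatocyte genes were high on KO-labelled arrays 2 and 5 only. Albumin (Alb) was well above background on 2 KO-labelled and no WT arrays at 0 Gy, and was not called (adjusted p = 0.521). At 7 Gy it was well above background on all 9 KO-labelled and all 5 WT arrays, with mean levels of -0.91 and 2.14. The median difference of the hepatocyte genes at 7 Gy was -3.15. The median of 36 hepatocyte genes was 1.36 with all arrays and -0.20 without these, and none of the 5 hepatocyte markers was well above background on all 10 arrays.

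Genes around Gadd45a on chromosome 6 were described because a removed allele can be inherited with its neighbours. Within 5 Mb of its probe 111 genes were tested and none was called, at a background of 0.298%. Of these, 76 were probes of the immunoglobulin kappa locus, with a median of 0.49 and 34 apart and higher (7.16% of all genes were). The other 35 had a median of 0.20 with 2 apart and higher and 1 apart and lower (3.66% of all genes were). Kappa probes match near-identical segments and are not independent of each other. Within 10 Mb 1 of 145 genes was called (Pyurf, lower), and within 20 Mb 2 of 297.

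Npy, a neuropeptide that mouse megakaryocytes also make, lies at a distance of -17.2 Mb from Gadd45a (towards lower coordinates) and was chosen after its values were seen. It stood at 0.87, -0.11, 0.62 and 0.89 on KO-labelled arrays 1 to 4, at -9.43 on array 5, and between -9.46 and -8.41 on the WT arrays, where it was never well above background. By the bound it was 30.0-fold higher, but the mean includes array 5, at background, so that 30.0 is not a firm lower limit. It was not called (adjusted p = 0.269), nor without arrays 2 and 5 (0.237). At 7 Gy it was well above background on 7 of 9 KO-labelled arrays and on 0 of 5 WT arrays, and was called higher (adjusted p = 0.0021), with no size given because WT was at background.

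**Figure D5:**
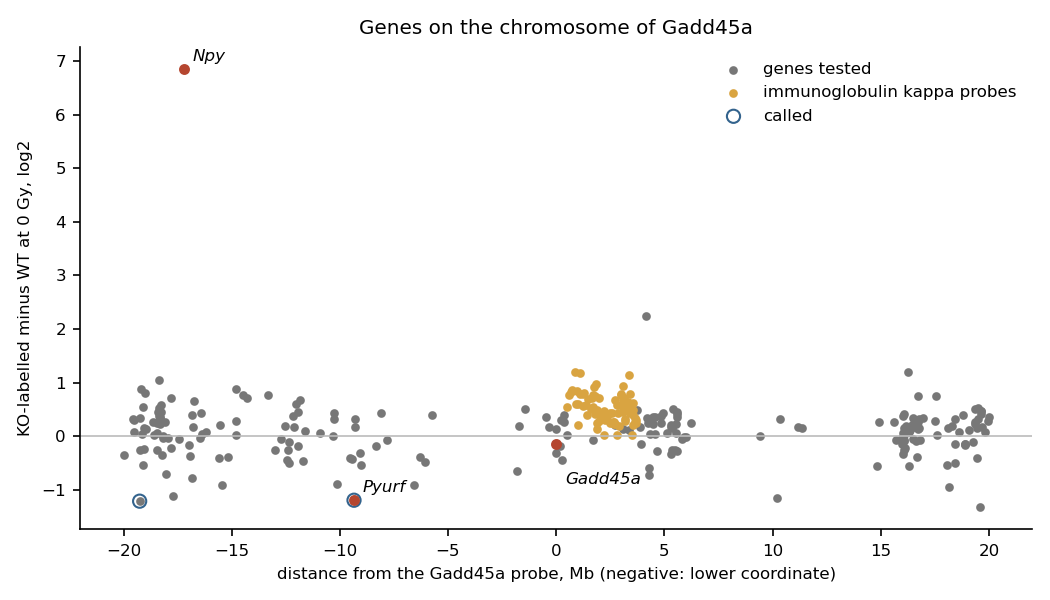
Difference KO-labelled minus WT at 0 Gy (log2) of genes within 20 Mb of the Gadd45a probe, against distance along the chromosome (Mb), with kappa probes in yellow and called genes ringed. Most genes lie near 0, the kappa probes lie slightly above it, and Npy stands far above the rest, at a height that is uncertain because its WT arrays were at background.

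With all arrays, the pathway of Gadd45a showed no call at 0 Gy. Its paralogs Gadd45b and Gadd45g differed by -0.32 (adjusted p = 0.791) and -0.27 (0.786), and Gadd45g turned in sign without KO-labelled array 2 (0.13). Of 37 p53 targets none was called, with a median of 0.22. Of these, 3 were apart and higher (7.16% of all genes were) and 2 apart and lower (3.66%). Without KO-labelled arrays 2 and 5 the median was -0.02 and 1 was called lower, as were 2 of all 15763 genes. Cdkn1a, the p53 target that stops the cell cycle, stood at -7.15, -5.25, -7.51, -7.21 and -5.33 on the KO-labelled and at -5.02, -5.02, -5.44, -5.08 and -5.71 on the WT arrays. KO-labelled arrays 2 and 5 lay within the WT range and the other 3 below it, and the gene was well above background on 1 of 5 KO-labelled and on all 5 WT arrays. On KO-labelled array 2 it was not, as the lowest signal well above background there was -5.07, so that its place in the WT range is uncertain. The difference was -1.07 ± 0.40 (0.382), and -2.09 (0.0118) without those arrays. Mdm2, which degrades p53, differed by 0.35 and Trp53 by 0.15, and Trp53 turned in sign under quantile scaling (-0.09). The medians were 0.40 for 26 DNA repair genes and 0.25 for 22 cell cycle genes, without a call.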

How the data were processed

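Whole blood RNA was measured on 24 one-colour arrays, of which the 10 unirradiated ones are described. Per the file headers, the deposited spot intensity came from Agilent Feature Extraction 12.0.2 (background subtracted and detrended within the array, not scaled between arrays), with probe positions on mm9. The authors' deposited value table holds log2 values. Set against the scanner files it equalled log2 processed signal plus a constant per array, with no centring of genes, and its column medians at 0 Gy were 5.93, 6.19, 6.36, 6.41 and 6.41 for KO-labelled arrays 1 to 5 and 5.75, 6.03, 6.39, 6.40 and 6.00 for WT arrays 1 to 5. It was used as an alternative. How the authors tested their data is not given in the sources used here. The labels name Cy3 as the dye except for WT array 5, and every file holds the green channel alone.

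Log2 processed signal was centred on each array's 75th percentile (taken across 7768 probes that every array measured well above background). Probes had to be well above background on 5 or more of the 24 arrays, which 19622 of 39429 were, and each of the 15763 genes was read from its brightest probe on average. The 4 groups were fitted together with limma 3.58.1 (R 4.3.3, 23 samples, two-sided, Benjamini-Hochberg adjusted, errors as SE). Scripts used Python 3.11.15 with numpy 2.4.6, pandas 2.3.3 and matplotlib 3.10.9, and the fit was tested on simulated data. The number of arrays limits the precision.

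The named genes are the 20 largest increases and decreases among the called genes that have an official name and were well above background throughout a group and not overlapping, up to 4 called members of each of 34 lists, and a preset set led by Gadd45a, of which some are not reported here. Unc5cl, Slc15a2, Serpina3f, Klk1b5, Ifi209, Npy and other genes outside this rule were chosen after their values were seen. The members and lists were chosen with earlier results of these data known. Replicate numbers are shared between groups, and same-numbered arrays at 0 Gy share a slide. Their deviations correlated from -0.195 to 0.482, and those of arrays with unlike numbers from -0.476 to 0.389. The numbers were not taken to pair them. With the slide as a random block the correlation within slides was 0.193, and fits with a block are among the alternatives. Alternatives changed the background correction, scaling, probe filter, samples in the fit, blocks and weights, and left out each array in turn. Promoters were matched by symbol to the RefSeq table of GRCm38.p6.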

Additional observations from a re-analysis of the deposited data

Results flagged for a closer look

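Single arrays lay far from the other arrays of their group in 18 of 162 groups of values, and chance alone gives about 1 in 20. KO-labelled arrays 1 and 4 entered as their mean. In the KO-labelled group the lowest value stood apart for Asns (-2.71), Ifi27 (-0.14), Cpox (-3.62), Zranb3 (-4.55), Gadd45g (-4.06), Cd3e (-0.15), Npy (-9.43) and Eif3c (0.052), and the highest for Mdm2 (-1.11) and the median of neutrophil granule genes (0.25 relative to WT). In the WT group the lowest value stood apart for Slc3a2 (-0.80), Dtx3l (-2.71), Tuba8 (-2.37), Mark3 (-3.26), Serpina3f (-8.10) and Pf4 (0.91). The highest WT value stood apart for Isg15 (2.91) and Cd3e (0.77).

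The label difference at 7 Gy minus that at 0 Gy passed limma's test in 30 of the 59 genes tested here, 22 lower and 8 higher. Most of these genes were chosen by their difference at 0 Gy, which also enters this test. The choice therefore favours a change against the 0 Gy direction, and the share over all genes is not given here. The interferon-responsive genes among them were Ifit3 (-3.40, adjusted p = 0.000202), Cmpk2 (-1.81), Xaf1 (-1.71), Irgm1 (-1.62), Ifi27 (-1.31), Ifi209 (-1.25), Ifi47 (-1.09) and Dtx3l (-1.08). Amino acid and chaperone genes were Asns (-2.23, 0.00202), Slc3a2 (-0.943), Dnajb1 (-1.10) and Dnaja1 (-0.768). Others that were lower were Alb (-5.39, 0.0159, at background in WT at 0 Gy), Serpina3f (-2.66), Selenbp1 (-2.24), Klk1b5 (-1.85), S100a8 (-1.80), Ncr1 (-1.72), Cpox (-1.52), Cnnm2 (-1.10), Swt1 (-0.852) and Eif3c (-0.707). The 8 higher ones were Cnn1 (2.67, 0.000239), Bmp2 (2.41), Afap1l1 (1.90), Cdc42ep5 (1.58), Zranb3 (1.55), Gadd45a (1.35), Tuba8 (1.23) and Syt13 (1.14).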

How the results depend on the processing

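Of 27 alternatives, 2 were chosen after seeing the data (the slide as a block with only the 0 Gy arrays, and leaving out KO-labelled arrays 2 and 5). Against 47 called genes, fewer were called with normexp background correction (1, Tspo2), with the 75th percentile over all probes (19), the authors' value table (9 of 7716 genes), no filter on dim probes (9 of 29711), the slide as a block in the 0 Gy arrays alone (7) and without KO-labelled arrays 2 and 5 (16). More were called with only the 0 Gy arrays in the fit (77, of which 27 were among the 47), the slide as a block (99), the slide as a random block (138), all arrays counted separately (79) and array weights (1564). Fits with a block counted KO-labelled arrays 1 and 4 separately. With the replicate number as a block, which for replicates 1 to 5 is also the slide, 301 genes were called, 185 higher and 116 lower. The causes were not tested. The other whole-table settings gave 33 to 70 calls.

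Leaving out single arrays gave 12 to 49 calls. It was 26 without KO-labelled array 3 and 12 without array 5, and 20, 16, 17 and 15 without WT arrays 1 to 4. The share of calls that were higher, 72.3%, was 61.0% with median scaling and 52.6% with the 75th percentile over all probes, and 42.9% (3 higher, 4 lower) with the slide as a block in the 0 Gy arrays alone. The called genes kept their direction in the alternatives that tested them (38 of the 47 in the authors' value table and 36 where probes had to be above background on all 0 Gy arrays), and the median over all genes stayed between -0.04 and 0.12.

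Among uncalled genes, Gadd45g (-0.27) turned with array weights (0.078), without the noisy arrays (0.081), without KO-labelled array 2 (0.13, single arrays left out giving -0.43 to 0.13) and without arrays 2 and 5 (0.10). Trp53 turned with quantile scaling (-0.086). Csf1r (0.12) turned with the authors' value table (-0.18), the mean of probes (-0.090), array weights (-0.25), without KO-labelled array 5 (-0.078, single arrays left out giving up to 0.22) and without arrays 2 and 5 (-0.27). Pf4 (0.05) turned with normexp (-0.066), median scaling (-0.0099), the 75th percentile over all probes (-0.064), array weights (-0.22), without the noisy arrays (-0.71), without KO-labelled array 3 (-0.077) and without WT array 1 (-0.94), the other arrays left out giving up to 0.32. Alb turned without KO-labelled arrays 2 and 5 (-0.37). Probes near background limit the size of differences in dim genes.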

Other observations

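A number of uncalled genes did not overlap between the groups. They were chosen after their values were seen. Chil4, a chitinase-like protein of myeloid cells, differed by -1.83 (limma adjusted p = 0.0538), Stfa1, a stefin of neutrophils, by -1.69 (0.0806) and Crispld2, a secreted protein abundant in neutrophils, by -2.07 (0.119). Chil3, a close relative of Chil4, differed by -1.84. Of genes higher in the KO-labelled arrays, Cd300e, a receptor of monocytes, differed by 1.74 (0.0544), Ifng, the type II interferon, by 1.16 (0.139) and Ccr3, the eotaxin receptor of eosinophils, by 1.22. Retnla, a secreted protein of macrophages, differed by 2.55 (0.311), and was highest on KO-labelled arrays 2 and 5.

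Of all genes, 29 were well above background on 4 KO-labelled and on 0 WT arrays, and 1 (Pcnx2) on 4 WT and 0 KO-labelled arrays, while none was on all 5 arrays of a group and 0 of the other. These counts depend on the sensitivity of the arrays, which was not corrected for. Well above background were 26.0% of probes on KO-labelled array 2 and 47.2% to 48.1% on the other KO-labelled arrays. On WT arrays 1, 4 and 5 they were 39.2%, 36.8% and 40.7%.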
